A study of Rattus norvegicus with 91 samples.

Results

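The GABA-A receptor subunits described here are Gabra2, Gabra3, Gabra4, Gabra5, Gabrb1, Gabrb2 and Gabrg1, 7 genes that code for alpha, beta and gamma chains of the receptor. Every probe set that the array annotation ties to exactly 1 gene symbol, equal to 1 of the 7, was taken, which gave 7 of the 14217 genes so named, with 8 of the 31099 probe sets on the array, 1 for each gene and 2 for Gabrb2. Levels were read in rat ventral tegmental area, a part of the midbrain whose dopamine neurons reach the striatum and the cortex. The rats came from 10 lines, bred in 5 pairs for opposite alcohol consumption. The high-consumption lines were HAD1 (8 arrays), HAD2 (8), P (9), AA (10) and sP (8), and the low-consumption partners were LAD1 (10), LAD2 (9), NP (10), ANA (10) and sNP (9). Each of the 91 arrays held the total RNA of 1 rat, and ages and any drinking history were not given in the sources used here. A line is a selected breeding population, so a difference within a pair covers every allele that separates both lines, whether or not it bears on drinking.

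GABA-A receptors are chloride channels of 5 subunits that open when GABA, the main inhibitory transmitter of the brain, binds between an alpha and a beta chain. A gamma chain gives most synaptic receptors their place at the synapse and their response to benzodiazepines, whereas receptors with alpha4 or alpha5 often lie outside synapses and carry a steady inhibitory current. In the ventral tegmental area these receptors sit on dopamine neurons and on the local GABA neurons that inhibit them, and ethanol acts on GABA transmission there.

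Promoters are shown for the beta subunit genes, because the 2 windows shared letters. Gabra4 is shown because it lies next to Gabrb1 on chromosome 14 and its signal followed that of Gabrb1 in arrays labelled P and NP. In arrays labelled sP and sNP the Gabra4 signal ran against that of Gabrb1. The windows run 5′ to 3′ from 250 bases before to 50 bases after the transcription start, on assembly GRCr8 of RefSeq. Capitals mark each run of at least 10 bases that the Gabrb1 and Gabrb2 windows had in common. The positions are chr14:36902844-36903143 on the minus strand for Gabrb1, chr10:27439543-27439842 on the plus strand for Gabrb2 and chr14:36944497-36944796 on the plus strand for Gabra4, so Gabrb1 and Gabra4 are read away from each other.
Gabrb1: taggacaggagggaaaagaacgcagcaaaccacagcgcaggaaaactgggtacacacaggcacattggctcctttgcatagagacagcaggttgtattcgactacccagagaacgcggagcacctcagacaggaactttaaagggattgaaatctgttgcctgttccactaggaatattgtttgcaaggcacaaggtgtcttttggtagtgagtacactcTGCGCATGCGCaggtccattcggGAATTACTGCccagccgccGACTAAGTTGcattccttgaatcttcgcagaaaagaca
Gabrb2: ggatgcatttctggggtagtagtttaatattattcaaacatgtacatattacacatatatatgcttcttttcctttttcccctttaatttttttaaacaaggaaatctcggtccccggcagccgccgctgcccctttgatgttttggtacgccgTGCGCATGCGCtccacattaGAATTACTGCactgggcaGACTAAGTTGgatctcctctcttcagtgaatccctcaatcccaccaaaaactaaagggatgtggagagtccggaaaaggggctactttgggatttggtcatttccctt
Gabra4: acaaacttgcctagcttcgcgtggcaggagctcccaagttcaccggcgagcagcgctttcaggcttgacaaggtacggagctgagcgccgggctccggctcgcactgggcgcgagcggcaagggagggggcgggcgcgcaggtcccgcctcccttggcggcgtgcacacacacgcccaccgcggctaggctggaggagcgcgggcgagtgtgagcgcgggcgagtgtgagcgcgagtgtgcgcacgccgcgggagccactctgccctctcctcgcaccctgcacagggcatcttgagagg

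The 3 shared runs stood in the same order in both beta subunit windows. The run TGCGCATGCGC began at base 221 of the Gabrb1 window and at base 155 of the Gabrb2 window, and 200 of 33469 promoter windows held it on either strand. GAATTACTGC began at bases 244 and 175, and 13 windows held it. GACTAAGTTG began at bases 263 and 193, and 5 windows held it. The first run contains GCGCATGCGC, a palindrome known as the recognition element of the factor NRF1, which 0.852% of all windows held on either strand. The Gabra4 window held none of these runs and was 70.7% G and C, against 49.3% for Gabrb1 and 44% for Gabrb2. RefSeq windows matched 6 of the 7 genes, and the exception was Gabra2. Neither of the promoter motifs CCAAT and TATAAA, searched on both strands, was in the Gabrb2 or Gabra4 window. Gabrb1 and Gabra3 each had 1 CCAAT and Gabrg1 had 2, all on the reverse strand, and 37.5% of all windows held at least 1. TATAAA stood in 14.2% of all windows and, of the 6, only in that of Gabra3.

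The deposited values are log2 signals, so a difference of 1 is a doubling. A probe set was tested if its mean in at least 1 line reached 7.02, the 40th percentile of all values, which 7 of the 8 subunit probe sets and 15152 of 20826 single-gene probe sets did. The labelled tissue was checked against the dopamine neuron markers Th (tyrosine hydroxylase) and Slc6a3 (dopamine transporter), whose line means lay between 12.94 and 14.98 and between 12.73 and 14.66. Some arrays stood apart. Those labelled P 10 and NP 8 had Th at 9.12 and 8.23, far below every line mean. P 8, NP 3, NP 5, NP 7 and P 5 were also below every line mean for Th, at 11.38, 11.64, 11.87, 11.67 and 12.62. The remaining P and NP arrays lay between 13.23 and 14.95. The value distributions of the arrays fell into 5 sets that mostly followed the pairs, and 2 arrays labelled AA (AA 1 and AA 19) and 1 labelled ANA (ANA 20) lay in sets of other pairs. The 3 sets that held the P, NP, AA, ANA, sP and sNP arrays had 20, 17 and 19 members, whereas the labels give 19 arrays for P/NP, 20 for AA/ANA and 17 for sP/sNP. The labels of these 3 pairs were used as given, and many of the subunit differences in P/NP and AA/ANA are also given without P 10, NP 8 or the 3 arrays outside their set. Gapdh 3′ minus 5′ signal, which rises as RNA is degraded or copied short, was highest in the HAD and LAD arrays. It averaged 1.89 in HAD1, 1.78 in LAD1, 3.4 in HAD2 and 3.6 in LAD2. In the other lines it averaged 0.14 in P and in NP, 0.50 in AA, 0.57 in ANA, 0.39 in sP and 0.40 in sNP. Its part in the subunit signals was not tested. Levels of the subunits were not compared between pairs, and the precision is limited by how many arrays each line has.

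No subunit probe set passed the test in any pair. Each pair was tested as the high- minus the low-consumption line in 1 limma fit over all arrays, and a probe set was called at a Benjamini-Hochberg adjusted p under 0.05 over all 15152. For HAD1 against LAD1, limma called 0 of the 7 subunit probe sets, and 0 had an unadjusted p under 0.05, where 4.09% of all tested probe sets were called and 12.7% were below the unadjusted threshold. For HAD2 against LAD2 it called 0 of 7 with 0 below the unadjusted threshold, where 5.23% of all were called and 14.4% were below. For P against NP it called 0 of 7 with 2 below the unadjusted threshold (Gabra4 and Gabrb1), where 0% of all were called and 5.74% were below. For AA against ANA it called 0 of 7 with 1 below (Gabrg1), where 3.17% of all were called and 13% were below. For sP against sNP it called 0 of 7 with 1 below (Gabra5), where 0% of all were called and 1.13% were below. Fitted on the arrays of the pair alone, Gabra4 and Gabrb1 in P/NP and Gabrg1 in AA/ANA were above the unadjusted threshold (limma p = 0.244, 0.214 and 0.105). In such fits Gabra5 was below it in sP/sNP and in HAD2/LAD2 (limma p = 0.00596 and 0.00626).

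Both lines reached the tested level in 28 of the 35 combinations of subunit probe set and pair, and in 25 of these the 95% interval of the difference lay within 1.5-fold in either direction. In the HAD and LAD pairs 10 of 10 such combinations did. In the other 7 combinations a line mean was below 7.02, so their intervals are on signals near background: Gabra4 in both HAD/LAD pairs, the dim Gabrb2 probe set in all pairs but P/NP, and Gabrg1 in AA/ANA. All 35 intervals use 1 spread per probe set for all lines. With P and NP fitted alone, 4 of 7 intervals lay within 1.5-fold, against 5 of 7 in the shared fit. The signals of both lines overlapped for 7 of 7 subunit probe sets in every pair, where the share of all tested probe sets without overlap was 0.205% for HAD1/LAD1, 1.6% for HAD2/LAD2, 0% for P/NP, 0.033% for AA/ANA and 0% for sP/sNP. The median subunit difference was 0.03 in HAD1/LAD1, −0.03 in HAD2/LAD2, 0.20 in P/NP, −0.04 in AA/ANA and 0.03 in sP/sNP, beside medians over all tested probe sets between −0.0067 and 0.013. Without the array labelled P 10 the P/NP median of the subunits was 0.06, and without P 10 and NP 8 it was 0.04. In tissue of mixed cells, fewer cells that express a subunit and less of its RNA per cell cannot be told apart.

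**Figure D1:**
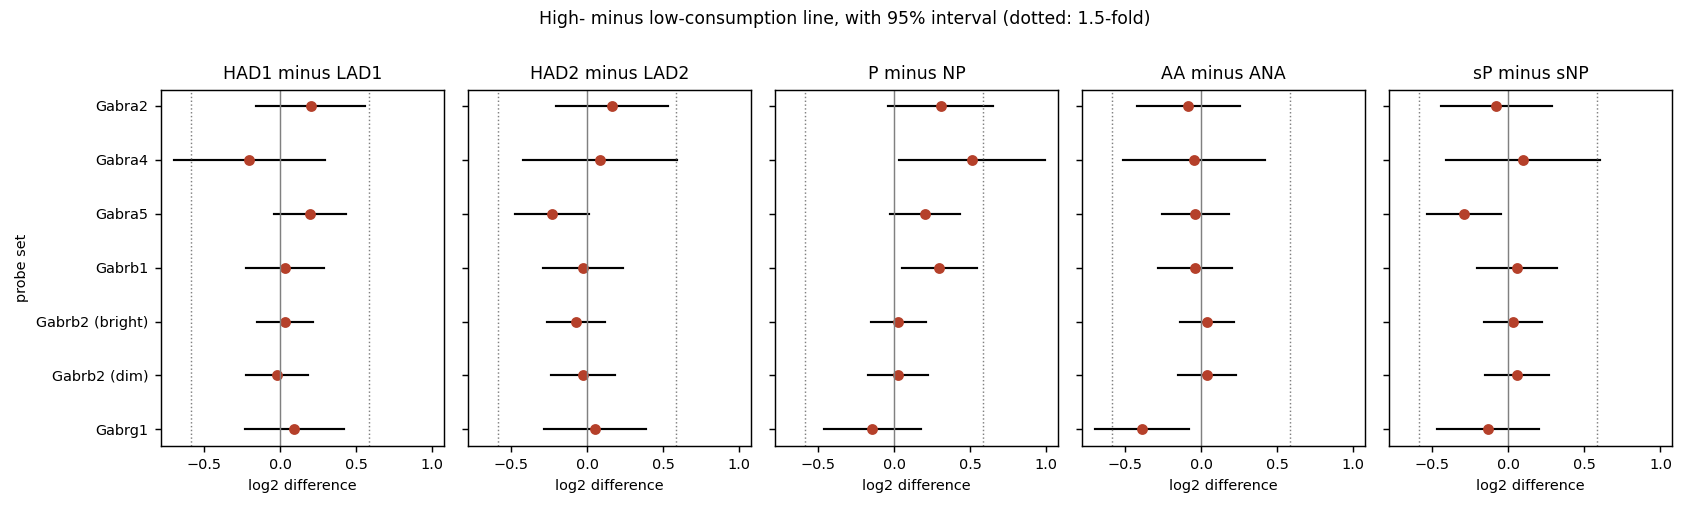
Difference in log2 signal between the high- and the low-consumption line (x axis) for the 7 tested subunit probe sets (rows) in each of the 5 pairs (panels), with points for the estimate and bars for the 95% interval of the shared limma fit. Dotted lines mark a 1.5-fold difference, which 29 of the 35 bars do not cross, and the estimate farthest from 0 is Gabra4 in P minus NP (0.51).

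Gabra2 codes for alpha2, a synaptic chain whose receptors mediate much of the calming effect of benzodiazepines in mice, and in people the GABRA2 region has been studied in alcohol dependence. Gabra2 ran from 7.93 to 8.45 with a median of 8.19 in HAD1, against 7.11 to 8.59 with a median of 7.96 in LAD1. In HAD2 it ran from 7.83 to 8.45 with a median of 8.12, against 7.48 to 8.54 with a median of 7.72 in LAD2. The low-consumption lines thus had the wider spread in both pairs, and their ranges enclosed those of the high-consumption lines. The differences were 0.20 ± 0.18 (SE, adjusted p = 0.78) for HAD1/LAD1 and 0.16 ± 0.18 (adjusted p = 0.845) for HAD2/LAD2, from limma. Single arrays moved both: the first was 0.10 without LAD1 40 and the second 0.10 without LAD2 19. The LAD2 arrays lay in separate clumps, 5 between 7.48 and 7.72 and 4 between 8.12 and 8.54, with none between. The spread of Gabra2 around the line means was wider than that of 95.7% of tested probe sets in HAD1/LAD1 and of 97.2% in HAD2/LAD2.

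In P arrays Gabra2 ran from 8.92 to 11.48 with a median of 9.27, against 8.66 to 9.82 with a median of 9.12 in NP arrays. The P maximum was the array labelled P 10, and the next highest P array was at 9.52. The difference was 0.31 ± 0.17 (SE, limma adjusted p = 0.9) with P 10 and 0.06 ± 0.14 without it. Gabra2 was within 0.1 of equality in both remaining pairs, where AA ran from 9.65 to 10.48 and ANA from 10.03 to 10.46 (difference −0.08 ± 0.17), and sP from 9.64 to 10.36 and sNP from 9.39 to 10.39 (difference −0.08 ± 0.18). The lowest AA arrays for Gabra2 were AA 1 and AA 19, at 9.65 and 9.83, the same arrays that lay outside the AA/ANA set. Without the 3 arrays apart the Gabra2 difference was −0.0033 ± 0.18.

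Gabra3 codes for alpha3, the alpha chain of many monoamine neurons. Its probe set lay below the tested level in every line, with line means between 5.58 (ANA) and 5.97 (P), and on 0 of the 91 arrays did it reach 7.02. Gabra3 averaged 5.66 ± 0.083 (SD, n = 8) in HAD1 and 5.77 ± 0.15 (n = 10) in LAD1. The averages of the second HAD/LAD pair were 5.67 ± 0.12 (n = 8) in HAD2 and 5.63 ± 0.093 (n = 9) in LAD2. Differences at this level were not tested.

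Gabra4 codes for alpha4, which joins the delta chain in receptors outside synapses, above all in the thalamus and the dentate gyrus. It was near the lower limit of what was tested: the line means were below 7.02 in HAD1, LAD1, HAD2 and LAD2 (6.47 to 6.85) and above it in the other lines. Gabra4 ran from 6.18 to 6.97 with a median of 6.66 in HAD1, against 6.27 to 7.19 with a median of 6.93 in LAD1 (difference −0.20 ± 0.25). It ran from 6.26 to 6.75 in HAD2 and from 6.18 to 6.87 in LAD2 (difference 0.08 ± 0.25). Signals overlapped widely in both pairs. When each pair was fitted on its own arrays, which had less spread, the Gabra4 standard errors were 0.12 for HAD1/LAD1 and 0.086 for HAD2/LAD2. Neither difference was called (limma adjusted p = 0.459 and 0.743).

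The arrays labelled P and NP spread over a wide range for Gabra4. They ran from 5.93 to 8.88 with a median of 7.62 in P, against 5.49 to 8.72 with a median of 6.995 in NP, and the spread around the line means exceeded that of 98.8% of tested probe sets. The difference was 0.51 ± 0.24 (SE, 95% interval 0.035 to 0.99, limma p = 0.0357, adjusted p = 0.853), with 7 of 9 P arrays above the NP median. It was 0.37 ± 0.24 without P 10 and 0.18 ± 0.23 without P 10 and NP 8. Fitted on the P and NP arrays alone, which had more spread, the standard error was 0.43 and the 95% interval −0.38 to 1.41 (limma p = 0.244). With the arrays weighted by their fit, the difference was called, at 0.77 (adjusted p = 0.0143), and over the settings tried its adjusted p ran from 0.0143 to 1. How many of all probe sets the weighted fit called is not given here. AA and ANA differed by −0.05 ± 0.23, with AA between 6.89 and 8.01 and ANA between 6.94 and 8.07. In sP, 4 arrays lay between 6.49 and 7.09 and 4 between 7.71 and 7.87, against sNP arrays between 6.65 and 7.62 with a widest gap of 0.28 (difference 0.10 ± 0.25). The sNP median of 7.28 lay in the gap that split the sP arrays, and the highest sNP array was below the upper sP group.

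Gabra5 codes for alpha5, a chain best known from hippocampal receptors outside synapses, where it takes part in memory in mice. Its difference was positive in 2 pairs and negative in 3. Gabra5 ran from 9.20 to 10.1 with a median of 9.68 in HAD1, against 9.06 to 9.88 with a median of 9.43 in LAD1, and 7 of 8 HAD1 arrays were above the LAD1 median. In HAD2 it ran from 9.47 to 9.99 with a median of 9.59, against 9.68 to 10.19 with a median of 9.87 in LAD2. Here 9 of 9 LAD2 arrays were above the HAD2 median, and 1 of 8 HAD2 arrays was above the LAD2 median. The differences were 0.20 ± 0.12 (SE, limma adjusted p = 0.543) for HAD1/LAD1 and −0.23 ± 0.12 (adjusted p = 0.385) for HAD2/LAD2. Fitted on its own arrays, HAD2/LAD2 had an interval of −0.39 to −0.074 (adjusted p = 0.0924).

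The Gabra5 difference in HAD1/LAD1 exceeded that in HAD2/LAD2 by 0.43 ± 0.17 (95% interval 0.092 to 0.77, limma p = 0.0134, adjusted p = 0.181). Between these replicate selections 4.13% of all tested probe sets were called as differing, and 0 of the 7 subunit probe sets were, with 1 (Gabra5) below the unadjusted threshold. In sP, Gabra5 ran from 9.39 to 10 with a median of 9.59, against 9.65 to 10.25 with a median of 9.94 in sNP. This difference was −0.29 ± 0.12 (95% interval −0.53 to −0.048, limma p = 0.0194, adjusted p = 1), with 1 of 8 sP arrays above the sNP median and 9 of 9 sNP arrays above the sP median. P and NP differed by 0.20 ± 0.12, and by 0.07 ± 0.11 without P 10, which was the highest P array at 10.91. AA and ANA differed by −0.04 ± 0.11, and by −0.06 ± 0.12 without the 3 arrays apart.

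Whether a difference depends on the pair was tested over all 5 pairs by limma's moderated F test (4 degrees of freedom for the pairs). It called 6.53% of all tested probe sets and 0 of the 7 subunit probe sets, with 1 (Gabra5) below the unadjusted threshold (limma p = 0.00727, adjusted p = 0.0877). Gabra5 was called there in 4 of the 91 fits that left out 1 array each, those without HAD1 26, P 2, P 7 or NP 7 (adjusted p = 0.032 to 0.0451), and its adjusted p was 0.134 at the highest in the other such fits. Within the pairs, Gabra5 moved against the dopamine neuron marker list (11 of its 12 genes) over arrays with label means subtracted, with r = −0.514 over 18 HAD1 and LAD1 arrays and r = −0.713 over 19 arrays labelled P and NP (−0.53 and −0.624 without the 2 arrays farthest from the median). In HAD2 and LAD2 r was −0.642 over 17 arrays and 0.029 without the 2 arrays farthest from the median. It was −0.534 in sP/sNP and −0.477 in AA/ANA (−0.652 and −0.357 without the 2 farthest). Other lists reached a like size in single pairs, such as 0.501 for endothelial and 0.496 for astrocyte markers in HAD1/LAD1. The dopamine neuron list itself averaged 11.7 ± 0.18 in HAD1 and 11.8 ± 0.27 in LAD1 (SD). For the other HAD/LAD pair it averaged 11.7 ± 0.26 in HAD2 and 11.7 ± 0.15 in LAD2. Its part in the Gabra5 differences was not tested.

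**Figure D2:**
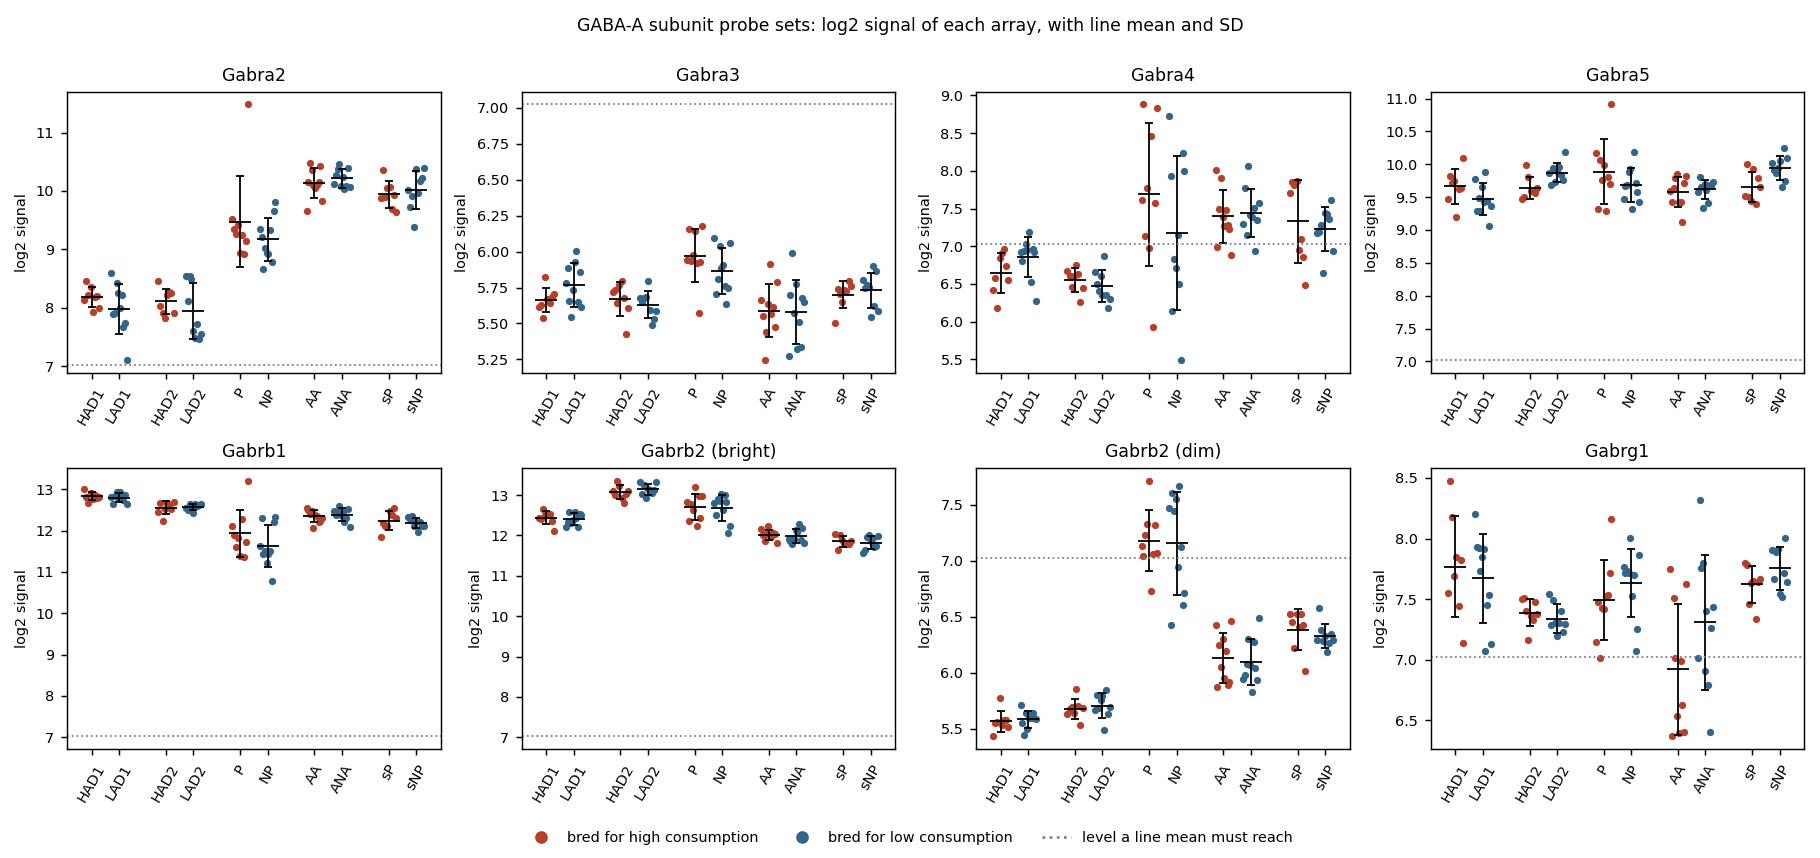
Log2 signal of each array (y axis, 1 point per rat) for the 8 subunit probe sets (panels) in the 10 lines (x axis), each high-consumption line to the left of its low-consumption partner, with bars for the line mean and SD and a dotted line at the tested level of 7.02. In every panel the points of both lines of each pair overlap, the array labelled P 10 stands above the other P arrays for Gabra2 (11.48) and Gabrb1 (13.2), and all Gabra3 points lie below the dotted line.

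Gabrb1 codes for beta1, a less common beta chain that in mice has been tied to alcohol intake through mutations of this gene. In the HAD and LAD pairs it was among the steadier probe sets, with a spread around the line means wider than that of only 21.2% of tested probe sets in HAD1/LAD1 and 32.9% in HAD2/LAD2. Gabrb1 ran from 12.66 to 13 in HAD1, against 12.63 to 12.94 in LAD1, with a median of 12.81 in both. It ran from 12.22 to 12.7 in HAD2, against 12.43 to 12.64 in LAD2. The differences were 0.03 ± 0.13 and −0.03 ± 0.13 (SE, limma adjusted p = 0.982 and 0.983). Fitted on its own arrays, each pair put Gabrb1 within a narrow interval, −0.078 to 0.14 for HAD1/LAD1 and −0.15 to 0.099 for HAD2/LAD2.

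In P arrays Gabrb1 ran from 11.36 to 13.2 with a median of 11.82, against 10.77 to 12.32 with a median of 11.5 in NP arrays. Both ends were the arrays that stood apart: P 10 was highest, with the next P array at 12.28, and NP 8 was lowest. The difference was 0.30 ± 0.12 (SE, 95% interval 0.05 to 0.55, limma p = 0.019, adjusted p = 0.844), with 7 of 9 P arrays above the NP median. It was 0.14 ± 0.11 without P 10 and 0.04 ± 0.10 without P 10 and NP 8. Fitted on the P and NP arrays alone, the standard error was 0.23 and the 95% interval −0.19 to 0.78 (limma p = 0.214). With array weights the difference was called, at 0.38 (adjusted p = 0.00223), again without a share of all probe sets beside it. Over the settings tried the adjusted p ran from 0.00223 to 1. In the remaining pairs Gabrb1 differed by −0.04 ± 0.12 for AA, between 12.06 and 12.54, against ANA, between 12.08 and 12.6 (−0.09 ± 0.13 without the 3 arrays apart), and by 0.06 ± 0.13 for sP, between 11.84 and 12.54, against sNP, between 11.96 and 12.34.

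Gabrb2 codes for beta2, the beta chain of the most abundant receptor type of the brain. It had a bright and a dim probe set. The bright one differed by between −0.07 and 0.04 over the pairs. It ran from 12.12 to 12.65 in HAD1 and from 12.21 to 12.59 in LAD1 (difference 0.03 ± 0.09), and from 12.8 to 13.35 in HAD2 and from 12.93 to 13.32 in LAD2 (difference −0.07 ± 0.10). Each of its 5 intervals lay within 1.5-fold, and the ends farthest from 0 were −0.26 (HAD2/LAD2) and 0.22 (sP/sNP). The dim one reached the tested level only in P (7.18 ± 0.27, SD, n = 9) and NP (7.15 ± 0.46, n = 10), where the difference was 0.03 ± 0.10 (SE) and 0.04 ± 0.10 without P 10. In the remaining lines its means were between 5.57 and 6.39. Over the 19 arrays labelled P and NP the 2 probe sets of Gabrb2 moved together (r = 0.742 with label means subtracted, also without the 2 farthest arrays), and over the 35 HAD and LAD arrays, where the dim one was below the tested level, they did not (r = −0.228, and −0.331 without the 2 farthest).

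Gabrg1 codes for gamma1, a gamma chain of restricted regions and of some glia. The signals were low in every line, with line means between 6.92 and 7.77. Gabrg1 ran from 7.14 to 8.48 with a median of 7.76 in HAD1, against 7.08 to 8.20 with a median of 7.79 in LAD1 (difference 0.09 ± 0.16). In HAD2 it ran from 7.17 to 7.51, against 7.19 to 7.54 in LAD2 (difference 0.05 ± 0.17). The first of these pairs was among the most variable for this gene, with a spread wider than that of 97.2% of tested probe sets, and the second was at 29.1%. P and NP differed by −0.14 ± 0.16, by −0.23 ± 0.16 without P 10 and by −0.29 ± 0.16 without P 10 and NP 8. The difference for sP and sNP was −0.13 ± 0.17.

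Among the 5 pair differences of the shared fit, the lowest adjusted p of any subunit was that of Gabrg1 in AA and ANA. It ran from 6.37 to 7.75 with a median of 6.81 in AA, against 6.40 to 8.32 with a median of 7.33 in ANA, with 3 of 10 AA arrays above the ANA median and 8 of 10 ANA arrays above the AA median. The difference was −0.39 ± 0.15 (SE, 95% interval −0.69 to −0.078, limma p = 0.0147, adjusted p = 0.209). AA 1 and AA 19, outside the AA/ANA set, were the 2 highest AA arrays, at 7.75 and 7.63. Without these and ANA 20 (7.43), Gabrg1 averaged 6.73 ± 0.41 (SD, n = 8) in AA and 7.29 ± 0.59 (n = 9) in ANA, and the difference was −0.56 ± 0.16 (SE, 95% interval −0.88 to −0.25). It was then called (limma adjusted p = 0.022), where 3.86% of all tested probe sets were, and it was also called with array weights (−0.52, adjusted p = 0.0073). For array weights that share is not given here.

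Other settings did not call Gabrg1 in AA and ANA. Fitted on the AA and ANA arrays alone, the standard error was 0.23 and the adjusted p was 0.543. Leaving out 1 array at a time gave differences between −0.49 and −0.27 with adjusted p between 0.0693 and 0.445. The spread around the line means was wider than that of 98.8% of tested probe sets, and the signals of 7 AA arrays and 4 ANA arrays were below 7.02. Gabrg1 moved with the list of 5 cortical and hippocampal neuron markers (r = 0.702 over 20 arrays with label means subtracted, and r = 0.739 without the 2 arrays farthest from the median). That list averaged 7.14 ± 0.12 in AA and 7.14 ± 0.11 in ANA (SD, n = 10 each), with array means from 6.99 to 7.35 in AA and from 7.01 to 7.36 in ANA. Gapdh 3′ minus 5′ signal averaged 0.50 ± 0.15 in AA and 0.57 ± 0.045 in ANA. Of that list, Slc17a7 (line means 5.69 in AA and 5.50 in ANA) and Tbr1 (4.87 and 4.90) were below the tested level on every array, and Neurod1 (6.12 and 6.17) was below it in both line means. Neurod1 (SD 0.62 in AA and 0.44 in ANA) and Neurod6 (SD 0.39 and 0.27) had the widest spread, so the list mean is not a reading of cortical or hippocampal neurons. Gabrg1 also moved with the 4 microglia markers (r = 0.591, and 0.556 without the 2 farthest arrays), whose mean was 9.37 ± 0.27 in AA and 9.26 ± 0.21 in ANA. It ran against Slc17a6 (r = −0.528, and −0.504 without the 2 farthest), at 12.57 ± 0.51 in AA and 12.41 ± 0.54 in ANA. The part of any of these in the Gabrg1 difference was not tested.

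**Figure D3:**
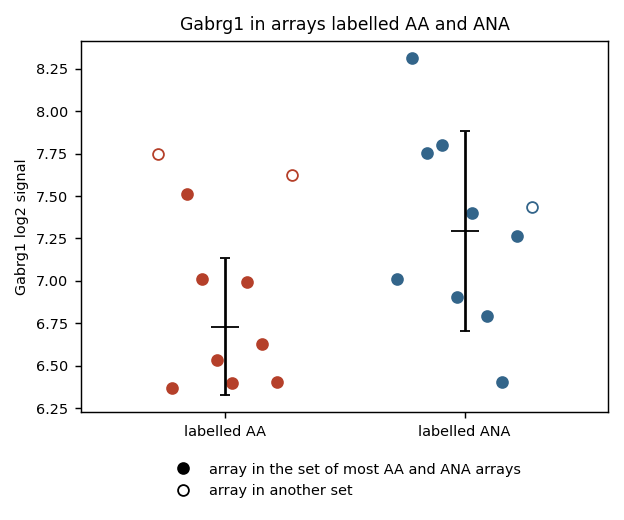
Gabrg1 log2 signal (y axis) of each array labelled AA (left) and ANA (right), with filled points for arrays in the set of most AA and ANA arrays, open points for the 3 arrays apart, and bars for the mean and SD of the filled points. The filled AA points average 6.73 and the filled ANA points 7.29, the ranges overlap, and both open AA points lie above all filled AA points.

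Several subunits moved together across the arrays labelled P and NP, whichever label they carried. After the label means were subtracted, Gabrb1 followed Gabra2 (r = 0.839) and Gabra4 (r = 0.765) over 19 arrays, and Gabra2 followed Gabra4 (r = 0.598). Leaving out the 2 arrays farthest from the median left r at 0.706, 0.83 and 0.683. The bright Gabrb2 probe set ran the other way, with r = −0.589 against Gabra4 and r = −0.444 against Gabrb1, and Gabra5 followed it (r = 0.634). Without the 2 farthest arrays these were −0.669, −0.68 and 0.612. Over the 35 HAD and LAD arrays the same relations had r at 0.195 for Gabra2 and Gabrb1, 0.321 for Gabra4 and Gabrb1 and 0.304 for Gabra2 and Gabra4, against 0.088, 0.127 and 0.115 without the 2 farthest arrays. In the same order r was 0.214, 0.296 and 0.087 over the 20 arrays labelled AA and ANA (0.476, −0.032 and 0.436 without the 2 farthest). Over the 17 arrays labelled sP and sNP it was −0.056, −0.551 and 0.511 (−0.132, −0.726 and 0.294). Gabra4 thus ran against Gabrb1 in sP and sNP. Whether the relations differ between these sets of arrays was not tested. Arrays may share their processing, so these values describe the arrays and carry no p.

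**Figure D4:**
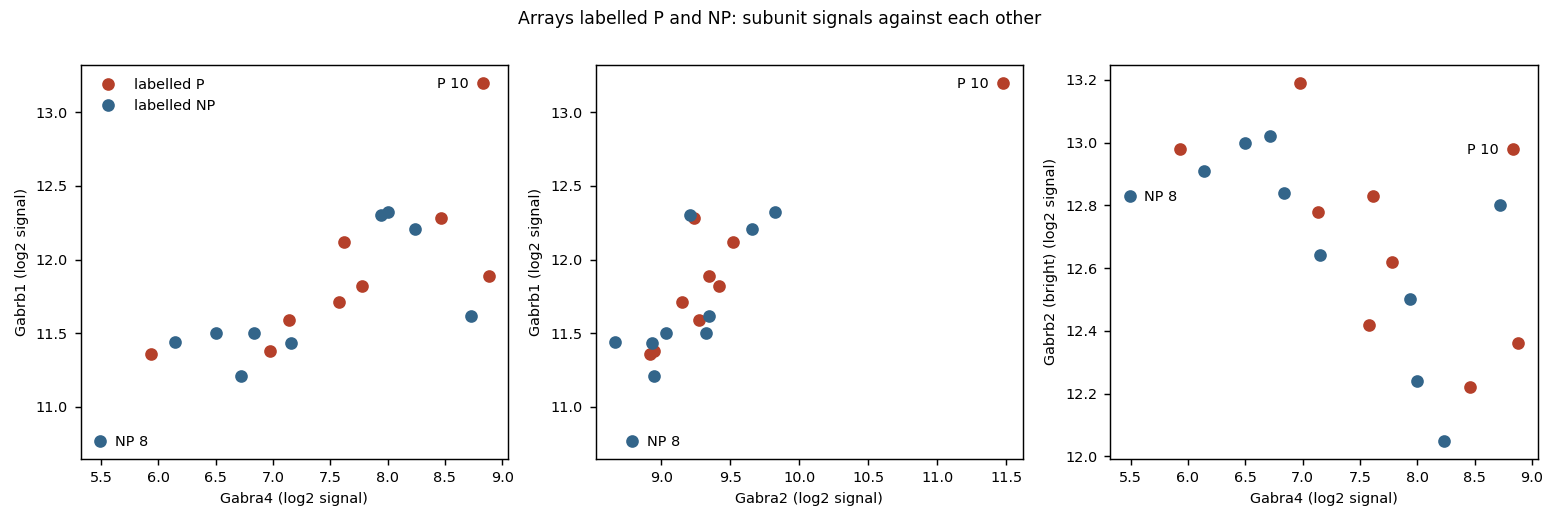
Log2 signals of subunits against each other in the 9 arrays labelled P and the 10 labelled NP, for Gabrb1 against Gabra4, Gabrb1 against Gabra2 and the bright Gabrb2 probe set against Gabra4. Points of both labels mix along a rising course in the first panel and a falling one in the third, with P 10 at the top of the first 2 panels (Gabrb1 13.2) and NP 8 at the bottom (10.77).

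Cell type markers moved along with these subunits in the same 19 arrays. Gabrb1 ran against Slc17a6, the vesicular glutamate transporter of midbrain glutamate neurons (r = −0.901), and with the lists of 6 astrocyte markers (r = 0.861) and 4 thalamus markers (r = 0.833). It also ran with the 4 microglia markers (r = 0.836, and 0.765 without the 2 farthest arrays). Against a red nucleus, habenula and interpeduncular list of Pou4f1 and Chrnb4, r was −0.895 (−0.834 without the 2 farthest). Chrnb4 was below the tested level (line means 5.33 in P and 5.37 in NP). Gabra4 ran with the thalamus list (r = 0.887) and Gabra2 against Slc17a6 (r = −0.895), whereas the bright Gabrb2 probe set ran against the cortical and hippocampal list (r = −0.859) and the dopamine neuron list (r = −0.739). Without the 2 arrays farthest from the median, r was −0.87, 0.8 and 0.771 for Gabrb1 with Slc17a6, astrocyte and thalamus markers, 0.867 for Gabra4 with the thalamus list, −0.601 for Gabra2 with Slc17a6, and −0.817 and −0.834 for Gabrb2 with the cortical and dopamine lists. Gabra4 also ran with the dopamine neuron list in P/NP (r = 0.579, and 0.901 without the 2 farthest arrays). For that list its r was 0.676 in HAD1/LAD1, 0.563 in HAD2/LAD2, 0.529 in sP/sNP and −0.047 in AA/ANA. With the thalamus list, r for Gabra4 was −0.241, 0.022, 0.143 and 0.265 in the same pairs. In the HAD and LAD lines Gabra4 was near background. Few genes carried some of these lists. In the cortical and hippocampal list Neurod6 had an SD of 1.1 in both P and NP, whereas Slc17a7 (line means 5.85 in P and 5.97 in NP) and Tbr1 (4.83 and 4.86) stayed below the tested level, and in the thalamus list Calb2 had an SD of 0.97 in P and 1.2 in NP, against 0.14 and 0.12 for Lef1. P 10 had a dopamine list mean of 8.11 and Slc17a6 at 9.08, and NP 8 had 8.65 and 14.32. Per label, the dopamine list ranged from 8.11 to 12.41 in P and from 8.65 to 12.25 in NP, the thalamus list from 9.40 to 10.24 in P and from 9.11 to 10.23 in NP, the astrocyte list from 11.33 to 11.86 in P and from 11.31 to 11.88 in NP, and Slc17a6 from 9.08 to 14.15 in P and from 10.74 to 14.32 in NP. The exact permutation tests of the label means gave adjusted p = 0.909 for the dopamine list, 0.76 for the thalamus list, 0.689 for the astrocyte list and 0.791 for Slc17a6. The part of these markers in the subunit values was not tested.

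Averaged over the 5 pairs, limma called 1.55% of all tested probe sets and 0 of the 7 subunit probe sets, with 0 below the unadjusted threshold. The average differences were 0.10 ± 0.08 for Gabra2, 0.09 ± 0.11 for Gabra4, −0.03 ± 0.05 for Gabra5, 0.06 ± 0.06 for Gabrb1, 0.01 ± 0.04 for the bright Gabrb2 probe set and −0.10 ± 0.07 for Gabrg1 (SE). The bright Gabrb2 probe set had 1 sign in 4 of the 5 pairs, and the other 6 in 3 of 5. Over the HAD and LAD pairs alone 5.22% of all tested probe sets were called and again 0 of 7, with 0 below the unadjusted threshold, and Gabra2 had the difference farthest from 0 (0.18 ± 0.13, adjusted p = 0.588).

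Genes that work with these subunits gave 1 call in all. Of all tested probe sets, 4.09% were called in HAD1/LAD1, 5.23% in HAD2/LAD2 and 3.17% in AA/ANA. The share was 0% in P/NP and sP/sNP, so an absence of calls in those 2 pairs is not particular to these genes. Of the other GABA-A subunit genes, 9 were looked at through their single-gene probe sets, and of these only a probe set of Gabrd, the delta chain of receptors outside synapses, reached the tested level. Gabrd differed by 0.01 ± 0.08 in HAD1/LAD1, 0.06 ± 0.08 in HAD2/LAD2, 0.00071 ± 0.08 in P/NP, −0.01 ± 0.07 in AA/ANA and −0.07 ± 0.08 in sP/sNP. Receptor clustering and trafficking genes were tested with 23 probe sets of 15 genes, and 0 were called in any pair. Among them Gphn, the scaffold gephyrin that anchors synaptic receptors, differed by 0.05 ± 0.04 in HAD1/LAD1 and −0.03 ± 0.04 in HAD2/LAD2. The chloride gradient and modulator genes, with 10 probe sets of 7 genes, gave 0 calls, and Slc12a5, the potassium chloride cotransporter that sets the direction of GABA currents, differed by 0.07 ± 0.06 and −0.0014 ± 0.06 in the same pairs. The median difference of these 3 lists lay between −0.07 and 0.06 in every pair.

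The call was in GABA synthesis, release and uptake, tested with 8 probe sets of 5 genes. It came in AA/ANA, where 3.17% of all tested probe sets were called. Abat, the transaminase that breaks GABA down, averaged 9.58 in AA and 9.36 in ANA with its brightest probe set, a difference of 0.22 ± 0.05 (SE, limma adjusted p = 0.00717). Its other probe sets differed by 0.26 ± 0.10 (adjusted p = 0.189) and −0.06 ± 0.09 (adjusted p = 0.887) between AA and ANA. Without the 3 arrays apart the brightest probe set differed by 0.23 ± 0.06 (adjusted p = 0.00559), and the others by 0.22 ± 0.11 and −0.13 ± 0.09 (adjusted p = 0.339 and 0.608). Whether the probe sets differ from each other was not tested. Gad1, a GABA synthesising enzyme, varied widely and was not called, with differences of 0.34 ± 0.28 in HAD1/LAD1 and 0.23 ± 0.29 in HAD2/LAD2. Gad2, its partner enzyme, differed by −0.06 ± 0.22 and −0.30 ± 0.23 in these pairs. Slc32a1, which loads GABA into vesicles, differed by 0.29 ± 0.22 and 0.06 ± 0.23.

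Of the 7 genes, 4 lie together on chromosome 14 of GRCr8 in the order Gabrb1, Gabra4, Gabra2 and Gabrg1, with Cox7b2 between Gabra4 and Gabra2 and with Commd8 and Gnpda2 on the flanks. No gene of this stretch was called in any pair, where between 0% and 5.23% of all tested probe sets were. Commd8 differed by −0.0024 ± 0.04 in HAD1/LAD1 and 0.07 ± 0.04 in HAD2/LAD2 (limma adjusted p = 0.996 and 0.421), and Gnpda2 by 0.09 ± 0.11 in AA/ANA, where its neighbour Gabrg1 differed by −0.39. Cox7b2 was below the tested level. Gabra5 lies beside Gabrg3 on chromosome 1, Gabrb2 between Gabra6 and Atp10b on chromosome 10 and Gabra3 on chromosome X, and Gabrg3 and Gabra6 were below the tested level.

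The genes whose signals were most like those of each subunit were sought over the 35 HAD and LAD arrays after line means were subtracted, as a description. For Gabra2 they were Htt (r = 0.837), Zfp821 (0.816) and Macroh2a1 (0.815), and for Gabrb1 they were Glce (0.824), Gap43 (0.817) and Chst1 (0.798). The bright Gabrb2 probe set was most like Bend6 (0.835), Immt (0.8) and Atp5f1c (0.788), the last 2 of which code for mitochondrial proteins. Gabra4 was most like Serpini1 (0.8), Ret (0.726) and Ntn1 (0.723), and Ret is 1 of the dopamine neuron markers. Gabra5 was most like C2h3orf80 (0.683), Rasgrf1 (0.661) and Alkbh5 (0.649), and Gabrg1 most like Rbbp6 (0.738), Jam2 (0.737) and Khdrbs1 (0.711).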

How the data were processed

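Ventral tegmental RNA of 91 rats was hybridised to Affymetrix arrays, 1 rat to an array. According to the labels' protocols, 25 ng of total RNA was amplified in 2 cycles to biotin cRNA. For 31099 probe sets the authors deposited log2 signals made with RMA, per the submitters' processing notes. RMA normalizes quantiles over the arrays run together, and which arrays those were is not given in the sources used here. Lines came from the labels, and numbers of columns without a sample were 0. The 20826 probe sets with 1 gene symbol in the platform annotation were kept (436 had several and 9780 none), and 15152 were tested, those whose highest line mean reached the 40th percentile of all values.

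Differences were contrasts of 10 line means in 1 limma fit (lmFit and eBayes, 81 residual degrees of freedom). Tests were 2-sided and p-values were adjusted by Benjamini-Hochberg, each contrast by itself. The fit was tested on simulated data. Array measures and marker list means were compared by exact permutation tests, or 100000 resamples with 10 arrays a side, and adjusted over the 5 pairs. Of 65 such tests 3 had an unadjusted and 1 an adjusted p under 0.05, the endothelial list in HAD2/LAD2 (9.75 in HAD2 and 9.88 in LAD2, adjusted p = 0.0222). The arrays were put in 5 sets by Ward clustering of their quantiles, a number that was chosen. Every single-gene probe set of the 7 genes was named, as were called genes of 4 fixed lists and the 3 genes most like each subunit. The members and lists were chosen with earlier results of these data known. Some genes of the fixed lists are not reported here.

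Replicate numbers shared by P and NP (9) or sP and sNP (8) were not taken as pairs. Correlations of same-numbered arrays ran from −0.71 to 0.70 and from −0.37 to 0.29, with 6 of 9 and 1 of 8 over 0.1. These values cannot exclude a pairing. Alternatives were other filters, normalizations, priors, array weights, a replicate block, technical sets as terms, pairs fitted alone and arrays left out. The array P 10 alone and the average of the HAD and LAD pairs were chosen after seeing the data. The tools were limma 3.58.1 and version 1.17.8 of data.table in R 4.3.3, and matplotlib 3.10.9, scipy 1.17.1, pandas 2.3.3 and numpy 2.4.6 in Python 3.11.15.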

Additional observations from a re-analysis of the deposited data

Results flagged for a closer look

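In lines of up to 10 arrays, 5 of 80 combinations of subunit probe set and line had an array whose gap to its nearest neighbour passed Dixon's 95% limit, and chance alone flags about 1 in 20. Gabra2 in the array labelled P 10 was at 11.48, with the next P array at 9.52, and Gabrb1 in the same array was at 13.2, with the next at 12.28. That array also had the lowest dopamine marker mean of all P arrays (8.11). Gabra3 in the array labelled P 8 was at 5.575, with the next P array at 5.92, all below the tested level. The dim Gabrb2 probe set was at 5.776 in HAD1 25, with the next at 5.58, and at 6.574 in sNP 2, with the next at 6.38, also below that level.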

How the results depend on the processing

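Outside the fits that left out 1 array, 100 counts of called subunits and 406 single differences kept their direction and their side of the threshold, and 4 counts did not, while 4 single differences became called and 6 reversed. With array weights 2 subunits were called in P/NP (Gabra4 and Gabrb1), 1 in AA/ANA (Gabrg1) and 1 in the test of dependence on the pair (Gabrb1, adjusted p = 0.02). The share of all tested probe sets called with array weights is not given here, so these counts have no background beside them. Without the arrays apart 1 was called in AA/ANA (Gabrg1), where 3.86% of all tested probe sets were. The cause was not tested. None of the reversed differences was called: with array weights Gabra4 in sP/sNP (−0.10), Gabrb1 in HAD2/LAD2 (0.025) and Gabrb2 in P/NP (−0.18 for the dim and −0.20 for the bright probe set), with the 5 sets as terms the dim Gabrb2 probe set in AA/ANA (−0.00067), and without P 10 the bright one in P/NP (−0.0063). Leaving out 1 array at a time, the count of subunits whose difference depends on the pair ran from 0 to 1, and the counts in each pair stayed at 0. The differences that then crossed 0 were Gabrb1 in HAD2/LAD2 (−0.048 to 0.021), the dim Gabrb2 probe set in HAD1/LAD1 (−0.048 to 0.00063), P/NP (−0.055 to 0.083) and AA/ANA (−2.9e-05 to 0.081), Gabrg1 in HAD1/LAD1 (−0.0065 to 0.18), the bright Gabrb2 probe set in P/NP (−0.042 to 0.090), Gabra4 in AA/ANA (−0.12 to 0.021) and Gabra5 in AA/ANA (−0.068 to 0.014). The replicate block called 0 subunits in P/NP and 0 in sP/sNP, as without it. Centring each array moved the median of all probe sets by under 0.1. Gabra3 in every line, Gabra4 in the HAD and LAD lines, the dim Gabrb2 probe set outside P and NP, and Gabrg1 in AA were near background, which limits what their differences bound. The HAD and LAD arrays had a higher Gapdh 3′ minus 5′ signal than those of the other pairs, and its part in the subunit signals was not tested. Per the labels each array is 1 animal, and the spread between arrays holds dissection and processing as well as differences between rats. The shared fit pools that spread over the 10 lines, so its p-values can be too low or too high for a given pair. Every P, NP, sP and sNP array lay in the set of most of its pair. The misfit came from AA 1, in the set of the P and NP arrays, and from AA 19 and ANA 20, in that of the sP and sNP arrays. It leaves the labels of these 3 pairs in doubt, which limits what they show.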
